A study of Mus musculus with 8 samples.

Results

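Lbr, Tm7sf2 and Dhcr7 encode related sterol reductases, and the 3 genes were taken by matching their symbols to the Ensembl gene IDs of the count table on GRCm38, which gave 3 of the 49671 genes listed. Liver RNA was sequenced from 8 C57BL/6 mice past weaning, 2 of each sex and genotype (WT or NT-KO), which gave 4 groups. NT-KO mice carried on both alleles a CRISPR/Cas9 deletion of 236 bp that takes away the start of the Lbr coding sequence (NT, N-terminal), and WT mice carried neither the deletion nor any other allele named in the labels. The line descends from 1 male founder that was crossed back to C57BL/6N, so each result below is about 1 allele from 1 founder. The deletion is in every cell, and whole liver was sequenced, so fewer cells of a type and less RNA per cell cannot be told apart. The labels number the 2 mice of a group but do not name litters or days, and p-values measure the spread between these samples, part of which may be technical.

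LBR is a protein of the inner nuclear membrane. Its N-terminal part binds lamins, chromatin and RNA, and its membrane-spanning part is a C14 sterol reductase, an enzyme that removes a double bond from the ring system of a cholesterol precursor. TM7SF2 carries out the same step in the endoplasmic reticulum, and DHCR7 reduces 7-dehydrocholesterol, which is the last step of one branch of cholesterol synthesis. Hepatocytes make much of the body's cholesterol, and the genes of this pathway are raised together by the SREBP2 transcription factor when sterols in the membranes run low.

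The Lbr gene (ENSMUSG00000004880) lies on the minus strand of chromosome 1, at chr1:181815335-181843046 of GRCm38. The deletion covers chr1:181838500-181838735, which holds the end of intron 1 and the first 57 bases of exon 2 of 14, of which 14 belong to the 5′ UTR and 43 are coding. Exon 2 is shown because it holds the removed start codon. In the sequence of the annotated GRCm38 transcript below, written 5′ to 3′ along the transcript, capitals mark the bases that NT-KO mice lack.
Lbr exon 2, chr1:181838378-181838556: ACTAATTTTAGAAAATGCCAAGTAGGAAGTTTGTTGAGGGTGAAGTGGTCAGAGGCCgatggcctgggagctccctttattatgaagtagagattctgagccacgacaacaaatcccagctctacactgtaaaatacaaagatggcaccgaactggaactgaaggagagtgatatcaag

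**Figure D1:**
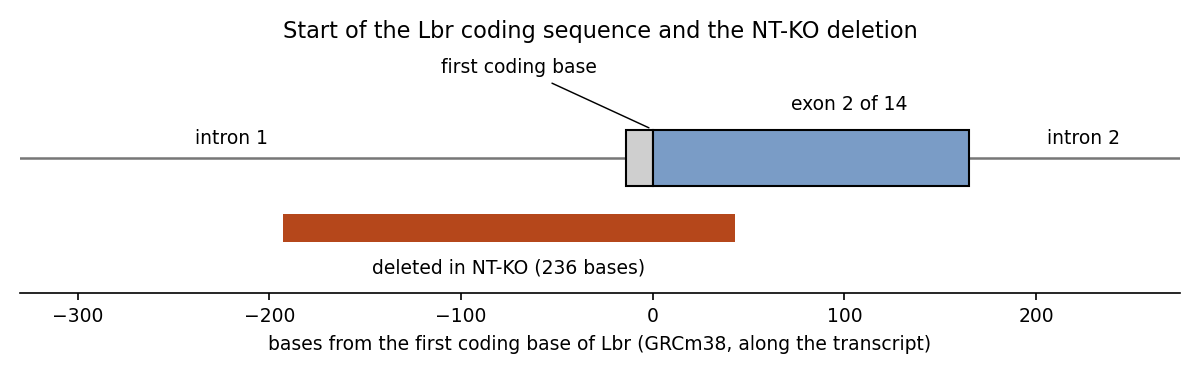
Map of the start of the Lbr coding sequence, with distance in bases from the first coding base on the horizontal axis, the 5′ UTR part of exon 2 in grey and its coding part in blue. The deleted 236 bases, drawn as a bar under the gene, reach from intron 1 over the first coding base and end 43 coding bases into exon 2.

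The first methionine codon that is left in the annotated reading frame is codon 118, and from there 509 of the 626 residues of the annotated protein remain. The stretch of LBR that aligned with TM7SF2 began at residue 218, well past that codon, and 247 of its 407 aligned residues (60.7%) were identical. LBR and DHCR7 shared 157 of 408 aligned residues (38.5%), and TM7SF2 and DHCR7 shared 160 of 394 (40.6%). In the annotation, the region by which Lbr aligns with its relatives lies outside the deleted bases. The deletion takes away 1.197% of the 4761 exonic bases of Lbr, so the count of Lbr is no check of the genotype labels. The study reports that the deletion disrupts splice signals and that the mutant transcript aberrantly retains the first intron. It counts a severe reduction of the protein among the likely reasons for the phenotype. Of the 3731 bases of intron 1, 214 (5.74%) are annotated as exon in other Lbr transcripts. Reads from the retained intron can thus add to the Lbr count of NT-KO mice, but only in part. Their share in the Lbr levels given below was not tested.

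Tm7sf2 (ENSMUSG00000024799) lies on the minus strand at chr19:6062821-6068373 and Dhcr7 (ENSMUSG00000058454) on the plus strand at chr7:143823145-143848410. The start regions of the 3 genes were read in the RefSeq windows for GRCm38.p6, 300 bases around each annotated start site, and all 3 symbols matched. The NF-Y box (CCAAT, searched on both strands) is shown because it was found in a window of each of the 3 genes. NF-Y is a factor known to act beside SREBP at sterol-regulated promoters. In the lines below capitals mark the box, which reads ATTGG where it lies on the other strand, and positions count from the start site.
Lbr, -68, chr1:181842453-181842481, minus strand: actggccctcgaCCAATcgccagcgccgg
Lbr, -28, chr1:181842413-181842441, minus strand: aaggtcgagggaCCAATggggagctcagg
Dhcr7, -85, chr7:143830117-143830145, plus strand: tcactgccttcaCCAATcacaggacgcag
Dhcr7, -49, chr7:143830153-143830181, plus strand: aatccacttccgATTGGtcgtctgtgacc
Tm7sf2, -47, chr19:6067881-6067909, minus strand: ctcccagcgctgATTGGctactgtgctgg

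The box was present in 37.4% of all 32851 mouse windows. By gene, it was in a window of 41.1% of 27025 genes. It was in 12 of the 13 other cholesterol synthesis genes that had a window. The GC box (GGGCGG) was also in a window of each member, in a window of 38.2% of all genes and in 35.7% of all windows. Like the NF-Y box, it was in 12 of the 13 other cholesterol synthesis genes. The E-box (CACGTG) was in 1 of the 3 windows of Dhcr7 and in 7.15% of all windows. A core of the sterol regulatory element, TCACNCCAC, was in no window of the members and in 1.24% of all windows, and among the other cholesterol genes it was in that of Hmgcs1. A match of letters is a description of these windows and not evidence of binding.

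Library totals ran from 45020377 to 64396291 counts. Levels are CPM, the count scaled to the library total after TMM adjustment for composition. Tests were run on the 13117 genes that reached 1 CPM in 2 or more libraries, and all 3 members were among them. The members were well covered, with 4613 counts over all libraries for Lbr, 68135 for Tm7sf2 and 38175 for Dhcr7, and the lowest count of any member in a library was 277. Liver identity was plain: each of 6 hepatocyte markers had at least 45800 counts in every library. Markers of other cells are given beside the Lbr result below.

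Lbr RNA was present in NT-KO liver at a higher level than in WT liver, in both sexes. WT males had 7.99 and 6.54 CPM of Lbr, and NT-KO males 12.8 and 13.6 CPM. WT females had 7.43 and 6.96 CPM, and NT-KO females 13.1 and 14.04 CPM. Every NT-KO library was above every WT library, and the groups of 1 genotype overlapped between the sexes. The group means ordered as female WT (7.19 ± 0.327 CPM, SD, n = 2), male WT (7.27 ± 1.03), male NT-KO (13.2 ± 0.603) and female NT-KO (13.6 ± 0.688), and neighbours of the same genotype in this order did not differ beyond their spread.

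Over both sexes Lbr was 1.85-fold higher in NT-KO (95% confidence interval 1.53 to 2.23), a log2 fold change of 0.89 ± 0.12 (SE). The adjusted p was 0.166 by edgeR's quasi-likelihood test, with an unadjusted p of 6.31e-05 that placed Lbr at rank 5 of the 13117 genes. This test called few genes at all: 2 genes (0.0152%) passed an FDR of 0.05 over both sexes and 5.42% had an unadjusted p under 0.05. By edgeR's likelihood ratio test, which belongs to the glmFit model named in the study's methods, Lbr passed with an adjusted p of 5.76e-05, among 0.389% of the genes tested. DESeq2 gave 2.62e-05, and 0.473% of genes passed it. The call thus depended on the test, while the fold did not: leaving out each library in turn left the log2 fold change between 0.82 and 0.96. The 4 NT-KO libraries lay above all 4 WT libraries in 48 genes (0.366%), and 5 of these, Lbr included, had a log2 fold change at least as high as that of Lbr.

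In males the log2 fold change of Lbr was 0.86 ± 0.17 (SE), with an adjusted p of 0.167 by the quasi-likelihood test, at which 0.0152% of genes passed and 11.5% had an unadjusted p under 0.05. The likelihood ratio test gave an adjusted p of 0.0144, where 1.94% of genes passed, and DESeq2 passed 2.35% of genes in males. In females the log2 fold change was 0.91 ± 0.17 (SE). Its adjusted p was 1 by the quasi-likelihood test, although Lbr ranked 4 by p. Only 1 gene (0.00762%) passed this test in females, and 1.55% had an unadjusted p under 0.05. The likelihood ratio test gave an adjusted p of 0.0551 in females, where 0.0839% of genes passed, and DESeq2 passed 0.0381%. Both male NT-KO libraries were above both male WT libraries in 19.6% of genes, and the same held in females for 12.2%.

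The effect on Lbr did not differ detectably between the sexes: the male effect minus the female effect was -0.056 on the log2 scale (95% confidence interval -0.60 to 0.49, adjusted p = 0.966 by edgeR's quasi-likelihood test). For this difference 0.0152% of genes passed and 7.2% had an unadjusted p under 0.05. Lbr also had a like level in females and males over both genotypes, with a log2 difference of 0.012 (95% confidence interval -0.26 to 0.28), in a comparison in which 7.84% of genes passed (540 higher and 488 lower in females). With library size alone in place of TMM, the median gene moved from -0.0094 to 0.12 in that comparison, 1148 genes were called higher and 351 lower, and Lbr stood at 0.14.

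**Figure D2:**
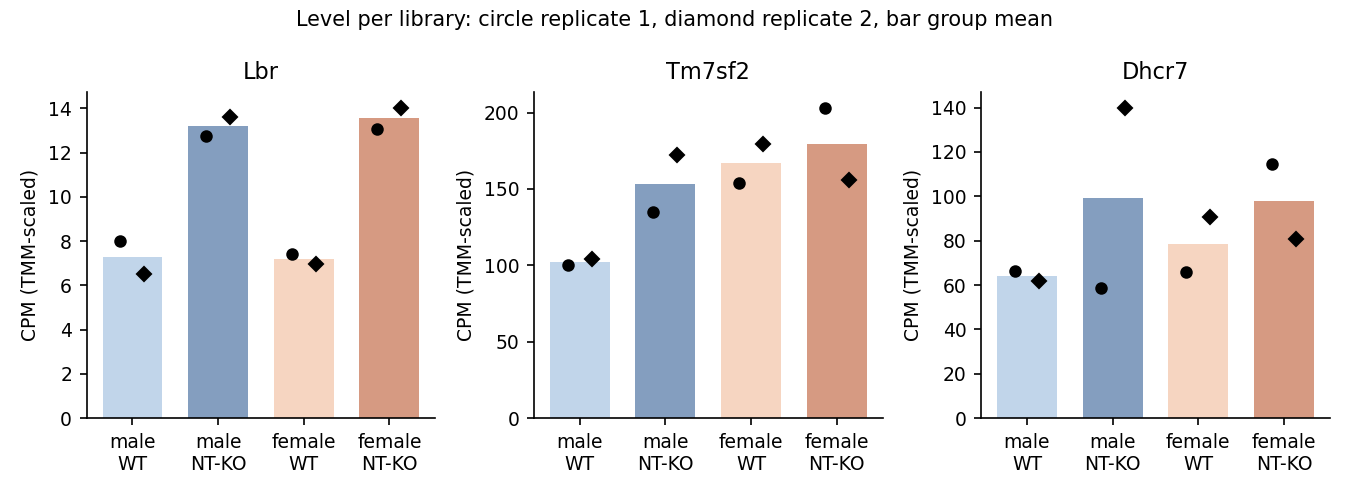
CPM of Lbr, Tm7sf2 and Dhcr7 (vertical axes, linear from 0) in the 4 groups. Bars are group means, circles are replicate 1 and diamonds replicate 2 of each group. All 4 NT-KO libraries exceed all 4 WT libraries for Lbr, whereas for Dhcr7 the male NT-KO libraries stand at 58.7 and 139.99 CPM, on both sides of male WT.

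Tm7sf2, the C14 reductase of the endoplasmic reticulum, was lowest in the WT males. WT males had 100.2 and 104 CPM, and NT-KO males 135 and 172 CPM. WT females had 154 and 179.7 CPM, and NT-KO females 203 and 156 CPM. Male WT was the low group, and the other 3 groups overlapped. In males the log2 fold change was 0.59 ± 0.20 (SE), with both NT-KO libraries above both WT libraries, as was so for 19.6% of all genes. The adjusted p was 0.345 by edgeR's quasi-likelihood test and 0.301 by the likelihood ratio test. Without male NT-KO replicate 2 the male value was 0.39 ± 0.22 (SE). In females it was 0.11 (95% confidence interval -0.36 to 0.57, adjusted p = 1 by the quasi-likelihood test). Over both sexes it was 0.35 ± 0.14 (SE), with an adjusted p of 0.906 by the same test. The male effect minus the female effect was 0.48 (95% confidence interval -0.18 to 1.15) and did not pass either, with an adjusted p of 0.738.

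Tm7sf2 was higher in females than in males by 0.47 ± 0.14 (SE) on the log2 scale over both genotypes. The adjusted p was 0.0859 by edgeR's quasi-likelihood test, 0.0621 by the likelihood ratio test and 0.0280 by DESeq2. In this comparison 1028, 1757 and 1849 of the 13117 genes tested passed these tests, in that order. Both female WT libraries were above both male WT libraries, as was so for 31.4% of all genes tested. Part of the Tm7sf2 count may come from Vps51, a gene on the same strand that shares 532 of the 4403 exonic bases of Tm7sf2 (12.1%). Vps51 itself had 9.91 to 15.2 CPM across the libraries, with a log2 fold change of 0.013 ± 0.17 (SE) in males and -0.11 ± 0.17 in females.

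Dhcr7, the reductase of the last step, varied most of the 3 members between libraries of 1 group, except in WT males. There the range was 7.07% of the mean for Dhcr7 and 20.1% for Lbr. WT males had 66.2 and 61.7 CPM, and NT-KO males 58.7 and 139.99 CPM. WT females had 66.1 and 90.5 CPM, and NT-KO females 115 and 80.6 CPM. No NT-KO group stood clear of its WT group, and the highest library of all was male NT-KO replicate 2. The log2 fold change was 0.64 ± 0.38 (SE) for males, 0.32 ± 0.38 for females and 0.48 ± 0.27 for the sexes together, with adjusted p values of 0.562, 1 and 0.973 by edgeR's quasi-likelihood test. Leaving out replicate 1 of the NT-KO females took the female value to 0.041, leaving out replicate 1 of the WT females took it to 0.11, and leaving out their replicate 2 took it to 0.56. Without male NT-KO replicate 2 the male value was -0.13 ± 0.28 (SE) and the value over both sexes 0.10 ± 0.18, so the male difference in Dhcr7 rested on 1 library. The male effect minus the female effect was 0.32 (95% confidence interval -0.90 to 1.54), and the female and male levels differed by 0.13 (95% confidence interval -0.48 to 0.74).

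Levels of different genes were compared as CPM per kb of exonic bases. On this scale Tm7sf2 was the most abundant of the 3 RNAs and Lbr the least in every library. The mean over libraries was 34.2 CPM per kb for Tm7sf2, 14.6 for Dhcr7 and 2.16 for Lbr, which placed them at percentiles 91.2, 83.3 and 42.3 of the 13096 tested genes with a length. Tm7sf2 exceeded Lbr by 13.6-fold and 17.2-fold in WT males and by 11.4-fold and 13.7-fold in NT-KO males. In WT females it did so by 22.4-fold and 27.9-fold, and in NT-KO females by 16.8-fold and 11.99-fold. Dhcr7 exceeded Lbr by 3.77-fold to 10.6-fold and stayed below Tm7sf2, which exceeded it by 1.62-fold to 3.08-fold. With the first-numbered coding transcript as length, in place of all exonic bases, the order of the group means was kept and Tm7sf2 exceeded Lbr by 25.2-fold to 61.6-fold.

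Of the summed Lbr and Tm7sf2 RNA per length, which is the RNA for both C14 reductases, Lbr made up 6.87% and 5.49% in WT males, against 8.05% and 6.81% in NT-KO males. The share was 4.27% and 3.46% in WT females, against 5.61% and 7.70% in NT-KO females. The male groups overlapped and the female groups did not. The share was 2.02 percentage points higher in NT-KO over both sexes (exact permutation test within sex, two-sided, p = 0.111), and with 36 arrangements this test cannot go below 0.0556 and so cannot pass 0.05. With the first-numbered coding transcript as length the shares were 2.57% to 3.23% in WT males, 3.21% to 3.82% in NT-KO males, 1.598% to 1.98% in WT females and 2.62% to 3.64% in NT-KO females, and the difference was 0.98 percentage points. The sum itself ran from 24.4 to 24.99 CPM per kb for WT males, 33.3 to 41.96 for NT-KO males, 36.5 to 42.3 for WT females and 38.3 to 48.9 for NT-KO females.

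The 3 ratios within a library need no scaling between libraries. They were put to the same exact permutation test, which cannot pass 0.05 here, so the values are a description. The log2 ratio of Lbr to Tm7sf2 was 0.55 higher in NT-KO over both sexes (0.29 in males and 0.82 in females), with an exact permutation p of 0.111 and 0.333 after Benjamini-Hochberg adjustment over the 3 ratios. The log2 ratio of Lbr to Dhcr7 was 0.48 higher (exact permutation p = 0.278, adjusted 0.417). Leaving out replicate 1 of the NT-KO males gave 0.19, and leaving out their replicate 2 gave 0.77. That of Dhcr7 to Tm7sf2 was 0.072 higher (exact permutation p = 0.833, adjusted 0.833), and without male NT-KO replicate 2 it was 0.15 lower, at -0.15.

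**Figure D3:**
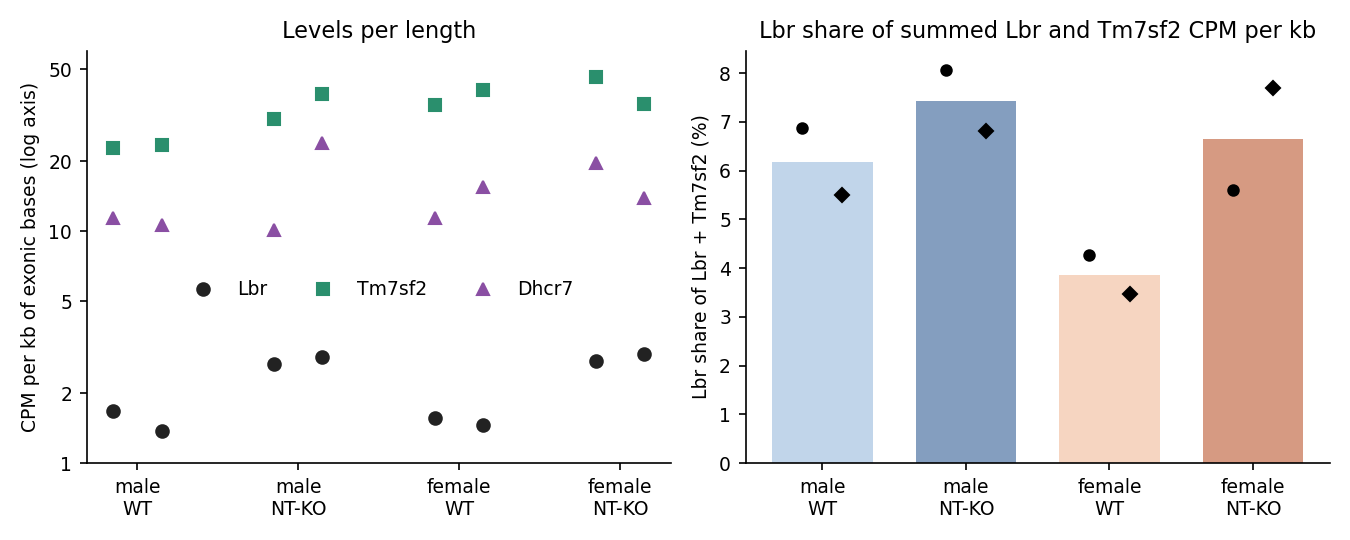
Left, CPM per kb of exonic bases (log axis) of the 3 genes in each library. Right, Lbr as a percent of the summed Lbr and Tm7sf2 CPM per kb, with bars for group means, circles for replicate 1 and diamonds for replicate 2. Tm7sf2 lies above Dhcr7 and Lbr in all 8 libraries, and the Lbr share is lowest in female WT, at 3.46% and 4.27%.

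The enzymes on both sides of the members, a list of 18 genes from acetyl-CoA to cholesterol, had higher values in NT-KO males than in WT males, with the size of the difference resting largely on male NT-KO replicate 2. In males all 18 had a log2 fold change above 0, with a median of 0.87, while 51.6% of all tested genes were above 0 with a median of 0.012. In females all 18 were above 0 with a median of 0.17, beside 50.3% of all tested genes and a median of 0.0012. The genes vary together, so that these counts are not 18 independent results. None of the 18 passed edgeR's quasi-likelihood test at an FDR of 0.05 in either sex. In males 7 had an unadjusted p under 0.05 (11.5% of all genes), 2 passed the likelihood ratio test (1.94%) and 4 passed DESeq2 (2.35%), namely Fdft1, Hmgcs1, Msmo1 and Pmvk. In females these counts were 0, 0 and 0, beside 1.55%, 0.0839% and 0.0381% of all genes. Both NT-KO libraries were above both WT libraries for 10 of 18 genes in males (19.6% of all genes) and for 1 of 18 in females (12.2%). Without male NT-KO replicate 2, 12 of 18 were above 0 in males and the median was 0.14. Without female NT-KO replicate 1, 6 of 18 were above 0 in females and the median was -0.093, and without female WT replicate 1 these were 12 of 18 and 0.026. The list was chosen with earlier results of these data known.

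Along the pathway, the male values of the first enzymes ran from 0.18 for Mvd to 1.48 for Hmgcs1, the largest of the list. Hmgcs1, the synthase that makes HMG-CoA, had 60.6 and 78.5 CPM in WT males against 91.0 and 298 CPM in NT-KO males, a log2 fold change of 1.48 ± 0.47 (SE). Acat2, which starts the pathway in the cytosol, stood at 0.64 in males. The kinases of mevalonate gave 0.53 for Mvk and 1.24 for Pmvk in males, and the decarboxylase Mvd gave 0.18. The isomerase Idi1 stood at 0.97 and the farnesyl diphosphate synthase Fdps at 0.90, on the same log2 scale in males. Without male NT-KO replicate 2 the male values were -0.73 for Idi1, -0.61 for Mvd and -0.031 for Fdps. They were then 0.38 for Hmgcs1, 0.41 for Pmvk, 0.28 for Mvk and 0.095 for Acat2.

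Of the enzymes that build and close the sterol ring, Fdft1 (squalene synthase) had the smallest adjusted p of the list in males, 0.210 by the quasi-likelihood test, at a log2 fold change of 0.98 ± 0.22 (SE). It had 69.6 and 70.9 CPM in WT males against 112 and 165 CPM in NT-KO males, and 128, 150, 190 and 152 CPM in the female libraries in the order WT, WT, NT-KO, NT-KO. Sqle (squalene epoxidase) stood at 0.61 and Lss (lanosterol synthase) at 0.76 in males, and without male NT-KO replicate 2 at -0.24 and 0.078, while Fdft1 was then at 0.67. Cyp51, the demethylase whose product is the substrate of the C14 reductases, stood at 0.68 in males and 0.081 in females. Without male NT-KO replicate 2 its male value was 0.13.

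The enzymes after the C14 reduction gave male values from near 0 to above 1 on the log2 scale. Msmo1, which takes off the C4 methyl groups, had 110 and 121 CPM in WT males against 186 and 362 CPM in NT-KO males, a log2 fold change of 1.245 ± 0.30 (SE). Its partners Nsdhl and Hsd17b7 stood at 0.84 and 0.98 in males. The isomerase Ebp stood at 0.027 ± 0.18 in males and 0.11 ± 0.18 in females, the smallest male value of the list. Sc5d, which makes the substrate of Dhcr7, stood at 0.97 in males. Without male NT-KO replicate 2 the male values were 0.68 for Msmo1, 0.15 for Nsdhl and 0.32 for Hsd17b7. They were then -0.0095 for Ebp and 0.29 for Sc5d.

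**Figure D4:**
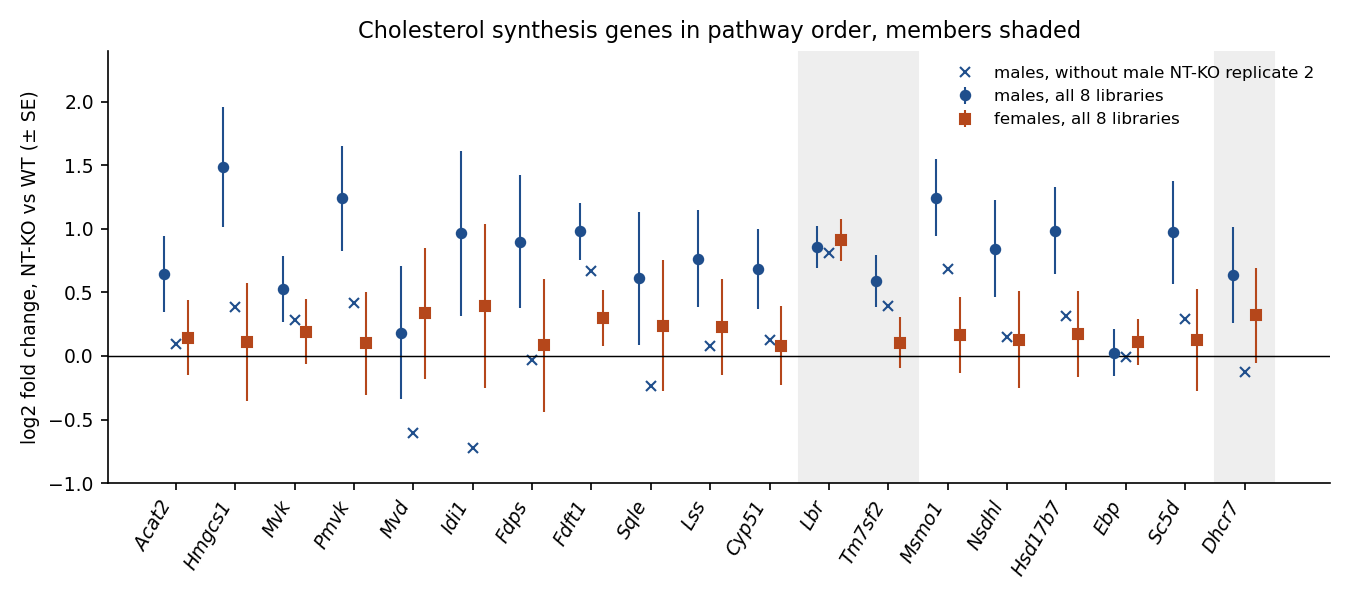
Log2 fold change of NT-KO against WT (vertical axis, bars are ± SE) for 16 of the 18 cholesterol genes and the 3 members (shaded) in the order of the pathway. Circles are males and squares females with all 8 libraries, and crosses are males without male NT-KO replicate 2. Lbr is at 0.86 in males and 0.91 in females and at 0.81 in males without that library, while the crosses of Dhcr7 and of 5 of these 16 genes fall below 0.

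Library by library, Dhcr7 and Tm7sf2 went with the pathway, Tm7sf2 less so in the NT-KO males, and Lbr parted from it in some libraries. As a score the median over the 18 genes of log2 CPM minus its mean over the 8 libraries was taken. The score was -0.60 and -0.46 for WT males, -0.39 and 0.73 for NT-KO males, 0.0041 and 0.29 for WT females, and 0.62 and 0.10 for NT-KO females. On the same scale Dhcr7 was at -0.29 and -0.39, -0.46 and 0.79, -0.29 and 0.16, and 0.50 and -0.0080 in the same order. Tm7sf2 was at -0.55 and -0.49, -0.12 and 0.23, 0.071 and 0.30, and 0.47 and 0.088. Lbr was at -0.29 and -0.58, 0.38 and 0.47, -0.40 and -0.49, and 0.41 and 0.51. Its sign was opposite to that of the score in male NT-KO replicate 1 and in both WT females. In the other libraries Lbr and the score had the same sign. Male NT-KO replicate 2 was above replicate 1 for 18 of 18 genes, and it was the highest of the 8 libraries for 12 of 18. In females replicate 1 of NT-KO was above replicate 2 for 16 of 18.

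**Figure D5:**
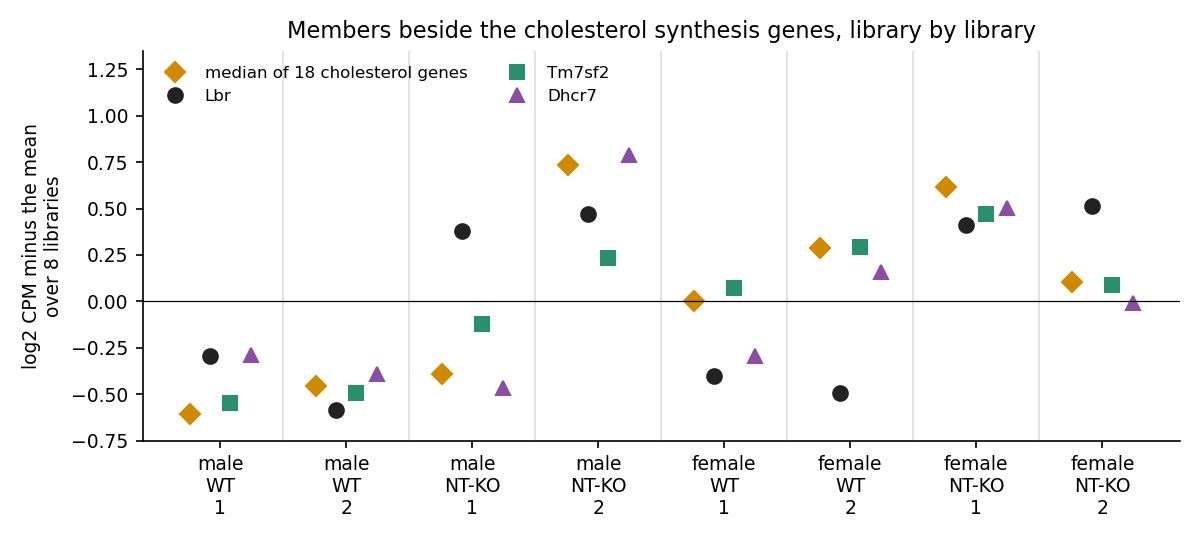
Log2 CPM minus the mean over the 8 libraries (vertical axis) for Lbr, Tm7sf2, Dhcr7 and the median of the 18 cholesterol genes in each library. Dhcr7 and the pathway median are both highest in male NT-KO replicate 2 (0.79 and 0.73), whereas Lbr is above 0 in the 4 NT-KO libraries and below 0 in the 4 WT libraries.

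The genes most like each member over the 8 libraries were ranked by the root mean square difference of centred log2 CPM, as a description. For Dhcr7 these were Rnd2, Lss, Gm5873, Cyp51 and Leap2, at differences of 0.11 to 0.17, and 6 of the 18 cholesterol genes were among the first 100 of 13116. For Tm7sf2 they were Fam169b, Elp4, Mvk, Naaa and Sdr42e1, at 0.094 to 0.11, and 2 of the 18 were among the first 100. For Lbr they were Alox12, Apold1, 2310058D17Rik, Ssbp2 and 4933440N22Rik, at 0.16 to 0.24, of which 4 did not exceed 1.77 CPM in any library. None of the 18 was among the first 100 for Lbr, the nearest being Cyp51 at rank 1741. Tm7sf2 was at rank 163 for Dhcr7, and Lbr was at rank 6619 for Tm7sf2 and 3560 for Dhcr7. The points share library and depth, and a like profile over 8 libraries says nothing of shared control.

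Sterol sensing, uptake and export genes (15 tested) gave values above 0 for most genes in males and none that passed a test. In males 12 of 15 were above 0 with a median log2 fold change of 0.34, and in females 9 of 15 with a median of 0.073. None passed edgeR's quasi-likelihood test, the likelihood ratio test or DESeq2 at an FDR of 0.05, and 6 in males (11.5% of all genes) and 1 in females (1.55%) had an unadjusted p under 0.05. Srebf1, the gene of the SREBP1 factors, had a log2 fold change of 0.73 ± 0.23 (SE) over both sexes. Insig1, which holds the SREBP complex back in the endoplasmic reticulum, stood at 0.52 ± 0.18 over both sexes. The sterol exporter gene Abcg1 stood at 0.25 ± 0.14 over both sexes, with 0.60 in males and -0.097 in females.

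Genes of the lamina and nuclear envelope that work with LBR (16 tested) centred on 0, with medians of 0.011 for males, 0.016 for females and -0.012 for the sexes together. None passed any of the 3 tests, and 0 had an unadjusted p under 0.05 in either sex. Lmnb1, a lamin that LBR binds, had a log2 fold change of 0.21 ± 0.18 (SE) over both sexes, and Lmnb2 of -0.28 ± 0.22. The values were -0.21 ± 0.12 for Srpk1, the kinase that phosphorylates the RS domain of LBR, and 0.12 ± 0.11 for Sun1, which links the lamina to the cytoskeleton.

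Markers of blood and immune cells, in which Lbr is also expressed, were summed per library, and their part in the Lbr values was not tested. Of 8 neutrophil markers 2 passed the filter, S100a8 and S100a9, and Ngp, Camp, Ltf, Elane, Mpo and Ly6g each had 0 counts in at least 1 library. Their summed level was 1.747 to 7.20 CPM for WT males, 3.07 to 5.74 for NT-KO males, 1.498 to 2.69 for WT females and 1.16 to 3.04 for NT-KO females. The 5 B cell markers summed to 1.345 to 1.92 CPM for WT males and 1.91 to 3.11 for NT-KO males, but to 7.81 to 7.99 for WT females and 3.301 to 5.34 for NT-KO females. The 6 T and NK cell markers summed to 1.02 to 1.89, 1.54 to 1.7496, 4.58 to 5.93 and 3.49 to 4.21 CPM in the same order. For the 6 erythroid markers the sums were 445 to 947, 370 to 372, 180.4 to 185 and 170.5 to 320.3 CPM, so that the erythroid sum was lower in both NT-KO males than in both WT males and overlapped between the genotypes in females.

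Markers of other cells of the liver lobule were summed in the same way, and no sum separated the genotypes in both sexes. The 6 Kupffer cell markers summed to 124 to 199 CPM for WT males, 165 to 222 for NT-KO males, 244 to 251 for WT females and 235 to 279 for NT-KO females. The 5 endothelial markers summed to 93.8 to 135, 129 to 143, 162 to 166 and 147 to 164 CPM in that order, the 5 stellate cell markers to 61.5 to 79.5, 68.4 to 81.7, 74.4 to 76.2 and 72.4 to 79.6, and the 5 proliferation markers to 4.57 to 10.8, 5.03 to 8.42, 4.07 to 8.10 and 8.03 to 9.83. Lyve1, a marker of sinusoidal and lymphatic endothelium, was the single gene of the endothelial list with a negative value over both sexes. It had 4.87 and 4.84 CPM in WT males against 3.01 and 2.88 CPM in NT-KO males, and 6.15 and 6.08 CPM in WT females against 4.74 and 3.12 CPM in NT-KO females. The groups did not overlap in either sex, but the share of all genes with NT-KO below WT in this way was not counted. The log2 fold change over both sexes was -0.68 ± 0.17 (SE), with an adjusted p of 0.669 by edgeR's quasi-likelihood test. None of the genes of these lists passed edgeR's quasi-likelihood test, the likelihood ratio test or DESeq2 for NT-KO against WT. The median log2 fold changes over both sexes were 0.038 for the hepatocyte markers, 0.12 for Kupffer cells, 0.10 for endothelium and 0.025 for stellate cells. They were 0.15 for proliferation, -0.091 for B cells, -0.33 for T and NK cells, -0.085 for neutrophils and -0.22 for erythroid cells. Unadjusted p values under 0.05 were found in males (11.5% of all genes) for Lyve1 and 2 of 5 erythroid markers tested, and in females (1.55%) for Lyve1 and 2 of 4 B cell markers tested.

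Levels of clock genes, with which cholesterol synthesis is known to vary over the day, also stood apart between the male groups. The mean of 8 clock output genes minus that of 3 genes of the opposite phase (Arntl, Clock and Cry1), in centred log2 CPM, was -1.59 and -1.24 for WT males against 0.21 and -0.066 for NT-KO males. It was 0.94 and 0.95 for WT females against 0.043 and 0.75 for NT-KO females. By median log2 fold change the outputs stood at 0.52 in males and -0.081 in females, and the 3 opposite genes at -0.88 in males and 0.40 in females. None of these genes passed edgeR's quasi-likelihood test. In males the 3 opposite genes and 4 of the 8 outputs had an unadjusted p under 0.05 (11.5% of all genes), and DESeq2 passed Cry1, Dbp and Per3, and the likelihood ratio test passed 1 of them. The part of these clock levels in the values of Lbr, Tm7sf2, Dhcr7 and the pathway was not tested.

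Genes near the members were looked at because reads of overlapping genes can be counted with them. Dnah14, on the opposite strand, shares 440 exonic bases with Lbr and had 7 to 17 counts in each library, far below the 277 to 918 counts of Lbr. Gm26004, an rRNA gene on the same strand that shares 69 bases with Lbr exons, had 0, 0, 2 and 0 counts in the WT libraries and 4, 6, 5 and 7 in the NT-KO libraries. Its counts were thus higher in every NT-KO library than in every WT library, as those of Lbr were, at a level below the filter. Of 22 annotated genes within 500 kb of Lbr 4 were tested, with log2 fold changes over both sexes of -0.12 to 0.10. For Tm7sf2 39 of 79 were tested, with a median of -0.098, and for Dhcr7 9 of 30, with a median of 0.16. None passed edgeR's quasi-likelihood test over both sexes or in either sex. An unadjusted p under 0.05 over both sexes was found for 0 of 4, 2 of 39 and 1 of 9 of them, beside 5.42% of all genes, and the likelihood ratio test and DESeq2 each passed 2 neighbours of Tm7sf2 in males and none otherwise.

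The 4 neighbours with the smallest p over both sexes were Ehbp1l1, Syvn1 and Slc25a45 near Tm7sf2 and Shank2 near Dhcr7. Ehbp1l1 had a log2 fold change of 1.05 ± 0.16 (SE) in males and -0.14 ± 0.16 in females. Syvn1, a ubiquitin ligase of the endoplasmic reticulum, stood at 61.8 and 51.2 CPM in NT-KO males and at 116 and 473 CPM in WT males, with a male value of -2.38 ± 0.56, and male WT replicate 2 was its highest library. Slc25a45 stood at -0.38 ± 0.17 and Shank2 at 0.75 ± 0.28 over both sexes.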

How the data were processed

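RNA of liver from 2 mice per sex and genotype was sequenced from TruSeq libraries of total RNA. Per the study's methods and the submitters' processing notes, the authors used cutadapt for trimming, STAR 2.6.1a for alignment to GRCm38 and featureCounts with Ensembl genes for counting. The deposited values are these read counts, whole numbers with no normalization. The strand setting is not given in the sources used here. Columns were matched to samples by label, with 0 unused. The annotation used here for names and lengths held 49412 of the 49671 IDs.

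A gene was tested if it reached 1 CPM in 2 or more libraries and was no rRNA, miRNA or mitochondrial gene. Tests used edgeR 4.0.16 in R 4.3.3 with TMM, a mean for each of 4 groups, no replicate block, all 8 libraries and Benjamini-Hochberg adjustment over all 13117 genes. DESeq2 1.42.0 and the likelihood ratio test were alternatives. A standard error is the log2 fold change divided by the square root of F. Log2 CPM for profiles had a prior count of 2. Single ratios were tested by exact permutation within sex. As a check for a library deposited more than once, the counts of the replicates of a group were compared (chi-square over its degrees of freedom, 91.5 to 238). None agreed within counting noise. The fits were checked on simulated counts.

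The members, the gene lists and the tests were chosen with earlier results of these data known. Genes are named by a rule: the members, all genes of the cholesterol list, up to 4 genes of each other list by the smallest quasi-likelihood p over both sexes, the 5 genes most like each member, and the 4 neighbours within 500 kb with the smallest p with any overlapping gene. Some genes that this rule names are not reported here, and they remain in the counts and medians of their lists. Markers below the filter, Dbp and genes passed by other tools were named from those counts. Length by first-numbered coding transcript was added after the data were seen. The positions of the deletion were counted on the Lbr transcript from the study's description, and proteins were aligned as translated from annotated transcripts.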

Additional observations from a re-analysis of the deposited data

Results flagged for a closer look

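Among the list genes reported here, 6 differed in opposite directions with genotype in the sexes. The NT-KO libraries of a sex were all on 1 side of its WT libraries, and on the other side in the other sex. None is a member of the sterol reductase group, and the difference itself did not pass edgeR's quasi-likelihood interaction test for any of them (adjusted p from 0.573 to 0.691), so it is not established. For clock genes the male effect minus the female effect on the log2 scale was -2.26 for Arntl and -0.86 for Clock, which were lower in male NT-KO and higher in female NT-KO, and 0.66 for Per3, with the opposite signs. For B cell markers it was 1.496 for Cd79a and 1.33 for Cd79b. For the beta globin gene Hbb-bt, whose reads may be shared with the near-identical Hbb-bs, it was -1.80. Ehbp1l1, a neighbour of Tm7sf2 outside the lists, also went in opposite directions. It had 12.1 and 12.8 CPM in NT-KO males against 5.73 and 6.35 CPM in WT males. In females it had 9.61 and 9.77 CPM in NT-KO against 10.01 and 11.3 CPM in WT.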

How the results depend on the processing

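The size of the Lbr difference hardly changed with the processing, and its call did. In males it passed an FDR of 0.05 by the likelihood ratio test (0.86), DESeq2 (0.86) and without the filter on low counts (0.855), in females without the filter (0.92), and over both sexes by the likelihood ratio test (0.886), DESeq2 (0.886) and without the filter (0.886). Tm7sf2 in females against males passed by DESeq2 (0.46), with library size only (0.60) and without the filter (0.47). Values near 0 changed sign: the sex difference in the Lbr effect was 0.039 with library size only, and Lbr in females against males was -0.0016 with filterByExpr. Genes called (past an FDR of 0.05 with more than a change of 1 on the log2 scale, or by FDR only for the sex difference) rose in males from 2 to 205 (likelihood ratio), 218 (DESeq2), 667 (no filter), 6 (filterByExpr) and 6 (robust fit), and fell to 0 with the 4 male libraries alone. In females they went from 1 to 11, 5 and 172 under the first 3 of these and to 0 with the 4 female libraries alone. Over both sexes they went from 2 to 38, 39 and 205, and for the difference between the sexes from 2 to 46, 62 and 552. For females against males, 550 became 1241 without the filter. The cause of these shifts was not tested.

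Leaving out 1 library at a time gave ranges of -0.15 to 0.30 for the log2 ratio of Dhcr7 to Tm7sf2, -0.19 to 0.086 for the sex difference in the Lbr effect and -0.057 to 0.087 for Lbr in females against males. They were -0.10 to 0.28 for Tm7sf2 in females, -0.13 to 1.13 for Dhcr7 in males, -0.45 to 0.81 for the sex difference in the Dhcr7 effect and -0.11 to 0.51 for Dhcr7 in females against males. The median of the cholesterol list ranged from 0.14 to 1.23 in males and from -0.093 to 0.38 in females. Genes called ranged from 2 to 21 in males (21 without male WT replicate 1), 0 to 0 in females, 0 to 9 over both sexes (9 without male WT replicate 1), 1 to 7 for the difference between the sexes and 364 to 561 for females against males. A lone library left in a group was assumed to vary like the others.

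The replicate numbers are shared between groups, and nothing in the labels ties a number to a litter or day. The correlation of same-numbered deviations was -0.0067 between the male groups, 0.023 between the female groups and -0.18 to 0.21 over the 6 pairs of groups, so the samples were taken to share only a number. With the replicate block, Lbr stood at 0.86 in males (adjusted p = 0.210 by edgeR's quasi-likelihood test) and 0.89 over both sexes (0.265), and the genes called were 2, 1, 3, 2 and 537 in the order above. The block changed no call of a member, a ratio or the Lbr share.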
